A study of Mus musculus with 6 samples.

Results

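The genes described here encode the proteins of the cytosolic ribosome. They were taken by symbol, as protein-coding genes whose names follow the Rpl, Rplp and Rps pattern with a number and at most 1 closing letter, together with Rpsa, and the S6 kinase genes were left out. This gave 80 of the 55401 genes in the count tables, of which 46 belong to the large subunit, 31 to the small subunit and 3 to the P stalk. Another 3 matching names were annotated as pseudogenes and were not used. All but Rpl10l, which had 0 counts in the 6 libraries (a count of 0 allows at most 0.051 CPM, counting error only), passed the filter on low counts, so 79 members were tested among 18539 genes.

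The libraries come from NIH3T3, a mouse embryonic fibroblast line, and poly(A) RNA was counted gene by gene. The cells carried either an empty vector or TAZ-CAMTA1 (TC), the fusion of a Hippo pathway co-activator with CAMTA1 that drives most epithelioid hemangioendotheliomas, and some TC-expressing cells were given aurintricarboxylic acid (ATA). There were 2 libraries of cells with empty vector and DMSO (EV), 1 library of TC-expressing cells with DMSO (TC), and 3 libraries of TC-expressing cells with ATA at 10 μM for 48 h (TC + ATA). EV cells treated with ATA are not part of the design, so an effect of ATA without TC cannot be told apart from one that needs TC. The sources used here do not state whether the replicates were separate cultures or whether the cells were 1 clone, and p-values measure only the spread between these libraries.

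Each ribosome joins a small 40S subunit, which reads the mRNA, to a large 60S subunit, which forms the peptide bonds. Most of its proteins are made in equal numbers of copies, from mRNAs that are among the most abundant in a growing cell. These mRNAs begin with a cytidine followed by a run of pyrimidines, the 5′ terminal oligopyrimidine (TOP) motif, through which mTOR and LARP1 control their translation and stability. A few members have a second gene copy that is used in particular tissues or states, such as Rpl3l in muscle, Rpl10l and Rpl39l in the male germ line, and Rps27l, which responds to p53.

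The sequences of 2 such pairs are shown because the counts of the partners are compared within each library further on. The coding sequences (without the stop codon, GENCODE M21, build GRCm38) are printed 5′ to 3′ with capitals at the bases that differ between the partners.
Rps27 (chromosome 3, gene from 90212522 to 90213651, minus strand): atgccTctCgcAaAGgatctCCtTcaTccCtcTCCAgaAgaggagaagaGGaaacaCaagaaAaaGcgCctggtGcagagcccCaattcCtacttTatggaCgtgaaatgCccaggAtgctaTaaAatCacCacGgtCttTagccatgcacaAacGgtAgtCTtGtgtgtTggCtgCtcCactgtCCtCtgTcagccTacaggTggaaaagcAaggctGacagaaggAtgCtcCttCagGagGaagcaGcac
Rps27l (chromosome 9, gene from 66946086 to 66949516, plus strand): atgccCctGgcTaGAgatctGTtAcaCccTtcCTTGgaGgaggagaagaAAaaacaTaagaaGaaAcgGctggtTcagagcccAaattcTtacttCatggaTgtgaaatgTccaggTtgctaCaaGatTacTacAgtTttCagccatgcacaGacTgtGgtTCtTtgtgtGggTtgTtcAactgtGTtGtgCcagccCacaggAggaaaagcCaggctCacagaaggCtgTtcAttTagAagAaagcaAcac
Rpl39 (chromosome X, gene from 37082520 to 37085402, minus strand): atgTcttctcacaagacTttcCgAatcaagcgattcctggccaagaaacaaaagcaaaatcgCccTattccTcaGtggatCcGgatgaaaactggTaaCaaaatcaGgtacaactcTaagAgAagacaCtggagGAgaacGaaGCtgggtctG
Rpl39l (chromosome 16, gene from 10170226 to 10174911, plus strand): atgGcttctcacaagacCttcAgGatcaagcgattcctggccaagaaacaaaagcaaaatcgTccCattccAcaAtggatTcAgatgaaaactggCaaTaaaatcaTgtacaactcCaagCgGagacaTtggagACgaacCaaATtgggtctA
Rps27 and Rps27l were identical at 192 of 252 coding bases (76.2%), and the longest run shared by their transcripts was 11 bases. Rpl39 and Rpl39l were identical at 130 of 153 coding bases (85.0%), with a longest shared run of 38 bases. The members of each pair can therefore be told apart by a read that spans more than these runs.

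Sequence near the annotated transcript starts (RefSeq, GRCm38.p6) is shown next for the 4 genes above. It is also shown for 3 of the 4 members that are called lower in TC than in EV further on. Each 30-base window was placed on the longest pyrimidine run found near the start, in capitals, and need not hold the start itself. Windows were drawn only where such a run was found, so its presence in the genes shown follows from the choice. None was drawn for Rpl7, the other member called lower.
Rps27, chr3:90213629-90213658 (-): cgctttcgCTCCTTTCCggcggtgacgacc
Rps27l, chr9:66946056-66946085 (+): cgcctccaCTCCTCTCCactcctccccgcc
Rpl39, chrX:37085221-37085250 (-): tcatccatCCCCCCCTaagctccgcctcta
Rpl39l, chr16:10170194-10170223 (+): acccactgCCTCTCCCTagctcccaggcct
Rpl28, chr7:4792955-4792984 (+): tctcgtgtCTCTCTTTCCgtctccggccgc
Rpl31, chr1:39367825-39367854 (+): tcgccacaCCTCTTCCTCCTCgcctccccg
Rpl36a, chrX:134585673-134585702 (+): ggctctagCCTCTCTCTTTCCgagctgcta
Counted from the annotated start, the runs began at position -2 in Rps27 and Rpl28, -18 in Rpl31, -20 in Rpl39, -22 in Rps27l, -26 in Rpl39l and 27 in Rpl36a, so that the runs of Rpl31, Rpl39, Rps27l and Rpl39l lie upstream of it. The RefSeq start of Rpl39 lies inside the GENCODE gene given above. A run of C followed by at least 7 further C or T, beginning within 30 bases of the annotated start on the sense strand, was found in 38 of 60 members that the promoter table holds (63.3%), and in 22.4% of all 27025 genes with a promoter there. On the opposite strand the same search found 11 of the 60 members (18.3%) and 25.8% of all genes. The run is a match of letters near an annotated start and not a mapped 5′ end.

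Library totals ran from 58471484 to 74413193 counts, so counting error is small for most members, and precision is set by how few libraries there are. The labelled cell type was checked by markers. Of the 10 fibroblast markers all were tested, and Col1a2, Vim and Col1a1 lay between 2789 and 7229 CPM (counts scaled to the library size after TMM normalization), whereas Fap was at most 0.45 CPM. In TC against EV, Col1a1 and Vim rose, and Thy1, Pdgfra and Fn1 fell, so the markers moved with the comparison, and their part in the members' differences was not tested. Of 10 markers of epithelial, blood, endothelial and muscle cells, 9 were at most 5.33 CPM in every library, Epcam at most 0.06 CPM among them, and the muscle filament gene Des lay between 26.2 and 42.4 CPM. Of the 9 that were tested Cdh5 alone was called in TC against EV (log2 fold change 1.55), at a mean of 0.48 CPM in EV and 1.43 CPM in TC. In bulk samples fewer cells of a type and less RNA per cell cannot be told apart.

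The members differed more between the EV libraries than between any 2 TC + ATA libraries. The members made up 9.58% of all counts in EV 1 and 7.39% in EV 2. The share was 6.66% in TC (95% Wilson interval 6.65% to 6.66%, counting error only), and 6.49%, 6.75% and 6.72% in the TC + ATA libraries. By share both EV libraries were above the TC-expressing libraries, and TC lay within the range of TC + ATA. After TMM scaling the summed member counts were 95313 CPM in EV 1 and 68293 CPM in EV 2, 68736 CPM in TC, and 66820, 68825 and 67641 CPM in TC + ATA. On that scale, which is used for single genes from here on, EV 2 lay within the range of the TC + ATA libraries and only EV 1 stood above. As group values the share was 8.49% ± 1.55 (SD, n = 2) in EV and 6.66% ± 0.14 (SD, n = 3) in TC + ATA.

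Gene by gene, 77 of the 79 tested members were lower in EV 2 than in EV 1, with a median log2 difference of -0.49 in TMM-scaled values. The same median over all genes that are not members was 0.00. Between pairs of TC + ATA libraries the members' medians were 0.04, 0.02 and -0.02. Small-subunit members had a median of -0.54 and large-subunit members a median of -0.44 between the EV libraries. The counts of the small subunit were 0.785 times those of the large subunit in EV 1, 0.737 times in EV 2, 0.764 times in TC, and between 0.760 and 0.770 times in TC + ATA. The EV libraries thus lay on either side of all others in the balance of the subunits.

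Of the members with a mean of at least 5 CPM, the largest decreases from EV 1 to EV 2 were in Rps27l (log2 difference -0.88), Rps15a (-0.78), Rpl27 (-0.71) and Rps12 (-0.66). The smallest decreases were in Rpl3 (-0.28), Rpl4 (-0.17) and Rpl29 (-0.07), and Rps10 was higher in EV 2 (0.76). Rps15a had 970 CPM in EV 1 and 567 CPM in EV 2, against 645 CPM in TC and 630, 638 and 628 CPM in TC + ATA. Rpl4, a large-subunit protein at the peptide exit tunnel, had 2455 and 2180 CPM in EV, 1933 CPM in TC and 1792, 1847 and 1809 CPM in TC + ATA. Rps15a of the TC-expressing libraries fell between the EV libraries, whereas Rpl4 of the TC-expressing libraries was below both.

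**Figure D1:**
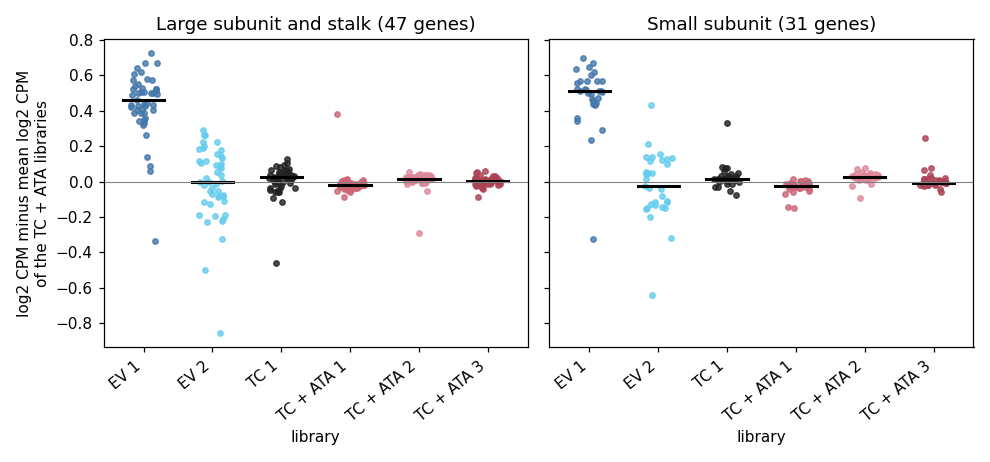
Each point is 1 member with a mean of at least 5 CPM, as log2 CPM minus the mean log2 CPM of the TC + ATA libraries (y axis), in each of the 6 libraries (x axis), with large-subunit and stalk genes at left (47 genes) and small-subunit genes at right (31 genes), and black bars at the medians. The points of EV 1 sit about 0.5 above those of the TC-expressing libraries, and the points of EV 2 scatter around 0 more widely than those of the TC and TC + ATA libraries.

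Genes of short summed exon length differed between the EV libraries in the same direction. Among genes that are not members and had a mean of at least 5 CPM, the median log2 difference of EV 2 minus EV 1 was -0.35 for 456 genes with up to 1000 bases of exon, -0.20 for 964 genes with up to 2000 bases, -0.06 for 2873 genes with up to 4000 bases, 0.03 for 4043 genes with up to 8000 bases and 0.08 for 2009 longer genes. The members' medians in the first 4 of these classes were -0.56 (11 genes), -0.48 (32 genes), -0.47 (29 genes) and -0.60 (6 genes). Members were thus lower than other genes of their length in every class that holds them, and did not follow the order of the classes. Counts assigned to the mitochondrial genome moved the other way, with 1.15% of the library in EV 1, 1.60% in EV 2, 1.84% in TC and 1.72% to 2.11% in TC + ATA. The part of exon length or of RNA quality in the difference between the EV libraries was not tested.

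**Figure D2:**
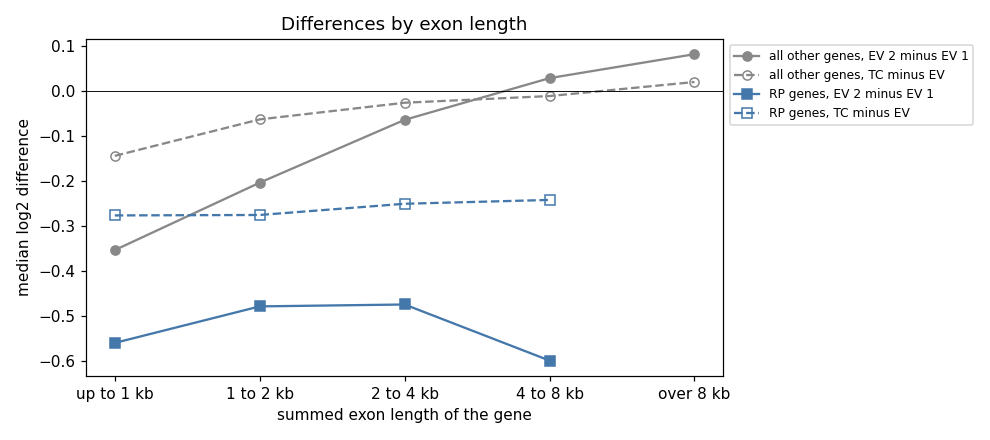
Median log2 difference (y axis) of genes grouped by summed exon length (x axis), for EV 2 minus EV 1 (solid lines, filled symbols) and TC minus EV (dashed lines, open symbols). For other genes the EV difference runs from -0.35 in the shortest class to 0.08 in the longest, and the members lie below them in each class that holds members.

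The first comparison asked what TC did to these transcripts. In TC against EV, 4 members fell and 0 rose (edgeR quasi-likelihood test, adjusted p of at most 0.05, with 0 higher and 14 lower at an unadjusted p under 0.05). Over all genes tested 13.2% were called lower and 14.8% higher. At an unadjusted p under 0.05, 3519 of all 18539 genes were lower and 3601 higher. DESeq2 called 12 members lower and 0 higher (13.9% and 16.0% of all genes). The median log2 fold change of the members was -0.25, against -0.03 over all genes, and 71 of 79 members were below 0. The 4 genes encode large-subunit proteins. Scaling by library size alone moved the median of all genes to -0.13 and called 28 members lower (17.0% of all genes), with 39.6% of all calls higher against 52.7% after TMM, and relative to all genes the members' median was -0.23 on either scale. Leaving out any 1 TC + ATA library, which carries part of the estimate of the spread, ended all 4 calls. Over all genes 2073 of 18431 were still lower without TC + ATA 1. Without TC + ATA 2 they were 1916 of 18379, and without TC + ATA 3 they were 1912 of 18339.

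Rpl36a had 710 and 521 CPM in EV, 429 CPM in TC, and 435, 454 and 450 CPM in TC + ATA. Its log2 fold change in TC against EV was -0.52 ± 0.16 (SE, edgeR adjusted p = 0.038). Rpl28 had 1554 and 1194 CPM in EV, 1003 CPM in TC, and 1004, 995 and 985 CPM in TC + ATA. Its log2 fold change was -0.45 ± 0.15 (SE, edgeR adjusted p = 0.046). In both genes all TC-expressing libraries were below both EV libraries.

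Rpl31 had 1509 and 1220 CPM in EV, 1026 CPM in TC, and 1034, 1079 and 1095 CPM in TC + ATA. Its log2 fold change was -0.41 ± 0.13 (SE, edgeR adjusted p = 0.046). Rpl7 had 2386 and 1955 CPM in EV, 1634 CPM in TC, and 1560, 1610 and 1622 CPM in TC + ATA. Its log2 fold change was -0.41 ± 0.13 (SE, edgeR adjusted p = 0.043). These groups did not overlap either.

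Which members were called depended on the EV library. With EV 1 left out, 19 members were lower and 19 higher in TC, with a median of 0.02 (edgeR; 20.1% of all genes were lower and 20.4% higher). With EV 2 left out, 74 members were lower and 1, Rps10, was higher, with a median of -0.46 (19.6% of all genes lower and 20.3% higher). In these fits 1 EV library faces 1 TC library, and the spread comes from the TC + ATA libraries and is assumed to hold for the others.

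Between these fits some members kept and others turned their direction. Lower in both were 19 members (14.4% of all genes), which include the 4 named above as well as Rpl39, Rps27, Rps28, Rps29, Rpl4, Rpl10a, Rpl11 and Rps4x. For Rpl39 the log2 fold change was -0.26 without EV 1 and -0.82 without EV 2. Called in opposite directions were 18 members, higher without EV 1 and lower without EV 2 (0.413% of all genes). The other 42 tested members fell in neither class. Among those called in opposite directions are Rplp0 and Rplp2 of the P stalk, which recruits the translation factors. Rpsa, Rpl41, Rpl8, Rps12, Rpl27, Rps27l and Rpl39l are also among them. For Rpl27 the values were 0.33 and -0.37. Both EV libraries stood above all 4 TC-expressing libraries in 34 of 79 members and below them in 0, whereas over all genes tested this held for 27.0% and 25.4%.

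The second comparison asked how ATA altered the members in TC-expressing cells. In TC + ATA against TC, 0 members rose and 0 fell by edgeR and by DESeq2, with 0 at an unadjusted p under 0.05 by edgeR. Over all genes 0.426% were called higher and 0.156% lower, and at the unadjusted p 1048 of 18539 were higher and 733 lower. With EV 1 left out, 0 members were called in this comparison, against 3.84% of all genes higher and 4.14% lower, and with EV 2 left out 0 members, against 4.41% and 3.32%. The members' median log2 fold change was -0.02, and that of all genes was 0.00. For the 73 members with a mean of at least 100 CPM the log2 fold changes ran from -0.09 to 0.11, with SE from 0.10 to 0.25. The median coefficient of variation of a member over the 3 TC + ATA libraries was 1.88%. The TC value lay within the range of the TC + ATA libraries in 29 members, below it in 14 and above it in 36. The same was not counted over all genes, so these counts are not read as a result about the members.

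Rpl21 had the largest value among these 73 members (log2 fold change 0.11) and Rpl8 the lowest (-0.09). Outside them Rpl3l, at 4.38 CPM in TC and 7.83, 4.91 and 5.67 CPM in TC + ATA, had a log2 fold change of 0.48 and did not pass (edgeR adjusted p = 0.66). A p that misses the threshold does not show that the values were alike, and TC has a single library.

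The third comparison set TC + ATA against EV and shares its EV libraries with the first. Here 25 members fell and 0 rose by edgeR (35 lower and 1 higher at an unadjusted p under 0.05), 16 of the large and 9 of the small subunit. Over all genes 18.6% were called lower and 18.0% higher. At an unadjusted p under 0.05, 4320 of all 18539 genes were lower and 4041 higher. DESeq2 called 34 lower and 1 higher (15.8% and 17.4% of all genes). The median log2 fold change was -0.26, against -0.01 over all genes. The largest decreases were in Rpl39 (-0.47), Rpl28 (-0.47), Rpl36a (-0.46), Rps27 (-0.45), Rpl7 (-0.44) and Rpl13a (-0.42). By library size alone 46 members were lower (23.6% of all genes), and 38.2% of all calls were higher against 49.2% after TMM. Without EV 1 the counts were 27 lower and 23 higher (23.9% and 22.1% of all genes), and without EV 2 they were 73 lower and 0 higher (21.7% and 21.8% of all genes). Leaving out 1 TC + ATA library left 2 to 4 members lower (13.1% to 13.8% of all genes).

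The gene copies were set beside their partners. Rps27, a zinc-finger protein of the small subunit, had 734 and 505 CPM in EV, 430 CPM in TC, and 439, 454 and 464 CPM in TC + ATA. Its copy Rps27l had 146 and 79.6 CPM in EV, 124 CPM in TC, and 122, 126 and 124 CPM in TC + ATA. The TC-expressing libraries were below both EV libraries for Rps27 and between them for Rps27l. Neither passed in TC against EV, with log2 fold changes of -0.53 ± 0.18 for Rps27 (SE, edgeR adjusted p = 0.062) and 0.13 ± 0.26 for Rps27l (SE, edgeR adjusted p = 0.76).

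Within a library the ratio of a pair needs no scaling. Rps27l counts were 19.9% and 15.8% of the Rps27 counts in EV, 28.8% in TC, and 27.8%, 27.7% and 26.8% in TC + ATA. The mean was 17.8% ± 2.91 (SD, n = 2) in EV and 27.4% ± 0.55 (SD, n = 3) in TC + ATA. All TC-expressing libraries were above both EV libraries, and by geometric means the ratio was 1.57 times that of EV. Of all genes tested, 45.1% were likewise higher relative to Rps27 in every TC-expressing library than in both EV libraries, and 25.6% by at least as much, so this pattern is common for a ratio to Rps27.

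Rpl39, a small protein at the exit tunnel, and Rpl39l gave a like picture. Rpl39 had 959 and 644 CPM in EV, 543 CPM in TC, and 560, 586 and 592 CPM in TC + ATA. Rpl39l had 155 and 99.7 CPM in EV, 135 CPM in TC, and 135, 146 and 142 CPM in TC + ATA. The ratio was 16.1% and 15.5% in EV, 24.9% in TC, and 24.1%, 24.9% and 23.9% in TC + ATA. These EV values lie close together although the EV libraries differ in both genes, and the ratio in the TC-expressing libraries was 1.55 times that of EV. Relative to Rpl39 the same order held for 45.1% of all genes, and for 27.6% by at least as much.

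Of the other pairs, Rpl7l1 came to 10.5% and 11.1% of Rpl7 in EV, 13.2% in TC, and 13.7%, 13.3% and 13.2% in TC + ATA. Rpl22l1 came to 15.6% and 16.4% of Rpl22 in EV, 17.4% in TC, and 17.2%, 17.9% and 18.3% in TC + ATA. Rpl3l, with 253 to 445 counts in a library, came to 0.40% and 0.34% of Rpl3 in EV, 0.48% in TC, and 0.90%, 0.56% and 0.64% in TC + ATA, and in the TC-expressing libraries the ratio was 1.68 times that of EV. Rpl36al, with 98 to 112 counts in a library, came to 0.18% and 0.28% of Rpl36a in EV, 0.37% in TC, and 0.43%, 0.34% and 0.35% in TC + ATA (1.63 times). In all 6 pairs named so far the TC-expressing libraries were above both EV libraries, which held for 39.5% of all genes relative to Rpl3, 40.8% relative to Rpl22, 49.7% relative to Rpl36a and 51.4% relative to Rpl7. Rps27rt, a gene that shares 100-base stretches with Rps27, came to 4.56% and 4.74% of Rps27 in EV and to 4.36% to 4.68% in the TC-expressing libraries, which overlap. The ratios were chosen after the values were seen and were not tested. From TC to TC + ATA the log2 ratio moved by -0.07 for Rps27l, -0.03 for Rpl39l and 0.52 for Rpl3l, and by 0.02 to 0.04 for the other 4 pairs.

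**Figure D3:**
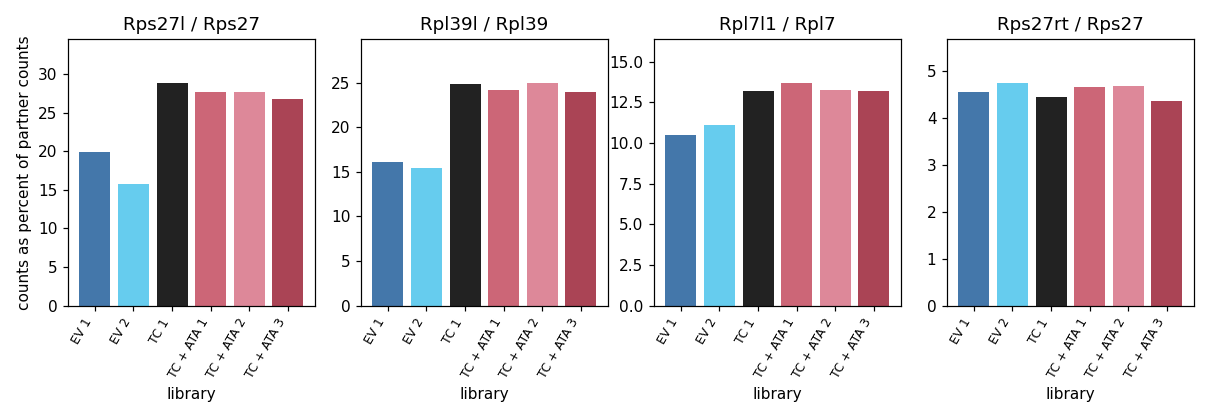
Counts of a gene copy as percent of the counts of its partner (y axis) in each of the 6 libraries (x axis), 1 bar per library, for Rps27l, Rpl39l, Rpl7l1 and Rps27rt. The 4 TC-expressing libraries lie above both EV libraries in the first 3 pairs (for Rpl39l at 23.9% or more against 16.1% or less) and overlap them for Rps27rt, and relative to Rps27 this order held for 45.1% of all genes.

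The members were also compared within the family. Relative to the summed member counts of each library, 25 members stood above all TC-expressing libraries in both EV libraries and 23 stood below them, whereas 8.89% and 33.2% of all genes did so on this scale. This scaling was added after the data were seen, and it centres the members, so a balance of both directions follows from it and the shares of all genes move with it. Those whose share of the member counts was higher in all TC-expressing libraries include Rpl8, Rpl27, Rpl41, Rplp2, Rpsa and Rps12 beside Rps27l and Rpl39l, and those with a lower share include Rpl28, Rpl36a, Rpl7, Rps28 and Rps29. By edgeR on this scale 1794 of all 18539 genes were higher and 505 lower in TC against EV. In TC + ATA against EV, 2997 were higher and 735 lower. Of the members 0 were called in TC against EV, and 2 were higher and 0 lower in TC + ATA against EV. They were Rpl8, a protein close to the peptidyl transferase centre (log2 fold change 0.23, edgeR adjusted p = 0.046), and Rpl3l (0.88, edgeR adjusted p = 0.017). Rpl8 had 2146 and 1526 CPM in EV, 1904 CPM in TC, and 1782, 1801 and 1776 CPM in TC + ATA.

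The remaining members with a special place in the ribosome or in ribosome surveillance were not called in any comparison by edgeR with TMM and all 6 libraries. Some of them were called with an EV library left out, as given above. Rplp0, the base of the P stalk, had 4364 and 2850 CPM in EV, 3162 CPM in TC, and 3073, 3139 and 3036 CPM in TC + ATA. In TC against EV the log2 fold change was -0.28 for Rplp1 and -0.14 for Rplp2. Rpl5 and Rpl11, which with 5S rRNA form a particle that binds Mdm2, had -0.19 and -0.29. Rpsa, also known as the laminin receptor, had -0.15. For each of them the EV values differed by more than this.

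Per kilobase of transcript, which allows levels of different genes to be compared, Rpl41 (4290 CPM per kb), Rplp1 (3605 CPM per kb) and Rps15 (2509 CPM per kb) were the highest over the mean of the 6 libraries. The lowest with a mean of at least 5 CPM were Rpl29 (34.6 CPM per kb), Rps10 (13.7 CPM per kb) and Rpl3l (3.74 CPM per kb), and the median member had 1039 CPM per kb. Some members with low counts overlap other genes or have copies. Rps10 and the annotated gene RPS10-NUDT3 share 475 exonic bases on the same strand, Rpl24, at 0.35 to 0.81 CPM, overlaps Gm28037 on its strand over 484 exonic bases, and Rpl29 shares 100-base stretches with 27 other genes. In 30 of 80 members at least 50% of all 100-base windows of the transcript occurred exactly in another annotated gene, and in 8 members no window did. Counts of such members are uncertain, since reads that match several genes could be split or lost in counting, and the use of strand is not given in the sources used here. Neither Rps27l nor Rpl39l shared a window, whereas Rps27 shared 98.4% of its windows with 2 genes and Rpl39 shared 1.75% with 1 gene.

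Other genes of ribosome production were compared by lists. Of the 51 ribosome assembly factors, 22 rose and 1 fell in TC against EV, with a median log2 fold change of 0.25, and the median between the EV libraries was 0.02. Without EV 1 the counts were 33 and 1, and without EV 2 they were 35 and 1. By library size alone 15 rose and 1 fell, with a median of 0.14. Utp20 (0.81), Rrp9 (0.72), Mdn1 (0.67) and Nop58 (0.58), which act in rRNA processing and in building the subunits, were among those that rose, and Ddx10 (-0.88) was the one that fell. In TC + ATA against TC, 9145 of all 18539 genes were below 0, and 733 were lower at an unadjusted p under 0.05. Of the assembly factors 0 were called, with a median of -0.16, 48 of 51 below 0, and 19 lower at that unadjusted p. Without EV 1, 29 were called lower in that comparison and 0 higher, and without EV 2, 24 lower and 1 higher. In these fits the spread comes from the TC + ATA libraries alone. Against EV, 14 rose and 1 fell in TC + ATA.

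Among 14 regulators of TOP mRNAs 5 rose and 1 fell in TC against EV. Larp1 (0.42), Larp4 (0.39), Eif4ebp1 (0.42), Eif4ebp2 (0.40) and Myc (0.45) rose, and the S6 kinase gene Rps6kb1 (-0.48) fell. Without EV 1 the counts were 7 and 4, and without EV 2 they were 7 and 1. Of 14 tested genes of RNA polymerase I and its factors, 4 rose and 2 fell, and of 6 tested ribosomal protein chaperones 1 rose and 0 fell. Between the EV libraries the medians of these lists ran from -0.08 to 0.03. The RNA polymerase I list had 3 that rose and 3 that fell with library-size scaling, and 5 and 4 with either EV library left out. The chaperones had 3 that rose and 1 that fell without EV 1, and 1 and 1 without EV 2. In TC + ATA against TC 0 genes of these 3 lists were called with all 6 libraries, and with either EV library left out 2 regulators, 2 RNA polymerase I genes and 1 chaperone fell.

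Between the EV libraries most lists that share features with the members lay nearer to them. In TC against EV the median of all genes was -0.03, with 14.8% called higher and 13.2% lower. There the mitochondrial ribosomal protein genes lay near all genes and not near the members. The 19 translation factors with TOP mRNAs had a median of -0.31 between the EV libraries and of -0.12 in TC against EV, with 2 that rose and 1, Eif4b, that fell. By library size 1 rose and 9 fell, without EV 1 the counts were 7 and 5 (median -0.03), and without EV 2 they were 4 and 12 (median -0.31). The 77 tested mitochondrial ribosomal protein genes had medians of -0.25 and -0.04, with 2 that rose and 8 that fell. By library size 1 rose and 16 fell, without EV 1 the counts were 23 and 9 (median 0.07), and without EV 2 they were 4 and 31 (median -0.17), so their direction turned with the EV library. The 148 tested ribosomal protein pseudogenes had medians of -0.45 and -0.22, with 0 that rose and 3 that fell, and without EV 2 1 rose and 45 fell. Another 6 tested genes whose names lie outside the pattern, among them Rack1, Rps3a1 and Fau, had medians of -0.39 and -0.22, and 0 were called (5 lower without EV 2). Without EV 1 their median in TC against EV was -0.01 and that of the pseudogenes 0.00, and without EV 2 the medians were -0.42 and -0.41. In contrast 9 noncoding hosts of small nucleolar RNAs, several of them TOP RNAs, had a median of 0.58 between the EV libraries and of -0.28 in TC against EV (-0.40 without EV 1 and -0.06 without EV 2), where Zfas1 and Snhg8 fell and 0 rose. In TC + ATA against TC 0 genes of the lists in this paragraph were called by edgeR with all 6 libraries. Without EV 1, 7 of the translation factors fell, and without EV 2, 4 fell. For the mitochondrial ribosomal protein genes 2 fell in either fit, for the host RNAs 2 and 1, and for the pseudogenes 3 fell and 1 rose without EV 1 and 1 fell and 2 rose without EV 2.

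**Figure D4:**
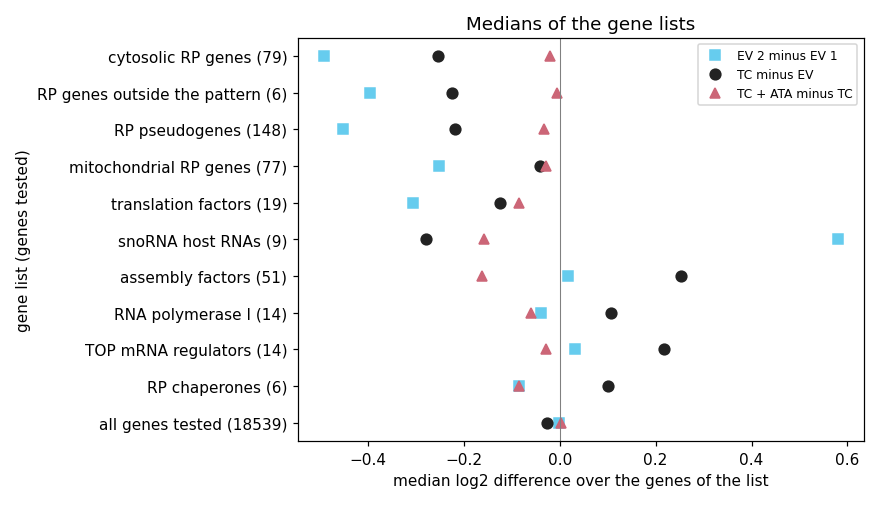
Median log2 difference over the tested genes of each list (x axis) for EV 2 minus EV 1 (squares), TC minus EV (circles) and TC + ATA minus TC (triangles), with 1 list per line and the number of genes tested in brackets. The cytosolic ribosomal protein genes lie at -0.49, -0.25 and -0.02, and the assembly factors at 0.02, 0.25 and -0.16.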

How the data were processed

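RNA was extracted with the RNeasy Mini kit, and poly(A)-selected libraries (NEBNext Ultra II) were sequenced as paired-end reads. Alignment by the authors used HISAT2 2.2.1 (version from the submitters' processing notes) and GRCm38.p6 (mm10), and featureCounts gave 1 number per gene. These deposited values are unnormalized counts. The annotation release and the use of strand are not given in the sources used here.

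From these counts, CPM values and group differences were obtained with edgeR 4.0.16 under R 4.3.3 (TMM, filterByExpr, glmQLFit, glmQLFTest, all 6 libraries in 1 fit with 3 residual degrees of freedom, Benjamini-Hochberg over 18539 genes, call at an adjusted p of at most 0.05). DESeq2 1.42.0 was an alternative. SE values were derived from the F statistic. On simulated counts for TC + ATA versus EV with 200 of 18539 genes changed 2-fold, 61% of these were called, along with 14 unchanged genes. TC has 1 library, so its spread is taken from the other groups. Symbols, positions and overlaps came from GENCODE M21 and start windows from RefSeq promoters. Windows of 100 bases of each transcript were matched exactly against all other annotated transcripts.

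The members and lists were chosen with earlier results of these data known. Named genes were the 6 largest increases and decreases of each comparison at a mean of at least 5 CPM, the 4 largest EV differences in each direction, the 3 highest and 3 lowest per length, the stalk genes, Rpsa, Rpl5, Rpl11, the gene copies with their partners, and the genes outside the pattern. Other members named with their fit without an EV library or their overlap were picked with their values in view. The alternatives were library-size scaling, TMM without the members, other filters, DESeq2, a replicate block, only the groups compared, each replicate left out, a fold limit, and other sets of members, of which 1 planned gene was left out and is not reported here. Scaling to summed member counts, exon length classes and pair ratios were added after seeing the data.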

Additional observations from a re-analysis of the deposited data

How the results depend on the processing

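TC + ATA against TC kept 0 members called in each direction under every alternative run. Beside 0 higher and 4 lower in TC against EV and 0 higher and 25 lower in TC + ATA against EV, the other settings gave fewer or more calls, and the cause was not tested. In TC against EV the number lower was 28 with library-size scaling, 20 without a filter on low counts, 12 with DESeq2, 1 with at least 5 CPM in a library, and 0 with only the groups compared, with a log2 fold change of at least 2 in size, or scaled to the summed member counts. In TC + ATA against EV it was 46 with library-size scaling, 46 without a filter (and 1 higher), 15 with at least 5 CPM, 34 with DESeq2 (and 1 higher), 0 with the fold limit, and 0 scaled to the summed member counts (and 2 higher, Rpl8 at 0.23 among them). TMM factors without the members, the wider set of members and the set of at least 1 CPM stayed within 1.5 times of these counts. Of all 28562 genes tested without a filter, 2761 were lower in TC against EV. In TC + ATA against EV 3778 were lower and 3397 higher. With at least 5 CPM 2189 of 10887 genes were lower in TC against EV and 2744 in TC + ATA against EV. With only the groups compared 1808 of 17764 were lower in TC against EV. Scaled to the summed member counts 505 of 18539 were lower in TC against EV. On that scale 735 were lower and 2997 higher in TC + ATA against EV.

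With a replicate block 0 members were lower in TC against EV, and 3 were lower and 1 higher in TC + ATA against EV. Of all 18539 genes 1467 were lower in TC against EV, and 2195 were lower and 2450 higher in TC + ATA against EV. The replicate numbers are not known to pair the libraries. Across genes the deviation of EV 1 correlated at 0.02 with that of TC + ATA 1, and that of EV 2 at -0.22 with that of TC + ATA 2.

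With 1 replicate left out in turn, TC against EV ran from 0 to 19 members higher and from 0 to 74 lower, and TC + ATA against EV from 0 to 23 higher and from 2 to 73 lower. The most members higher came without EV 1, the most lower without EV 2, and the fewest lower without a TC + ATA library. The log2 fold changes that turned direction with a call ran, in TC against EV, from -0.37 to 0.33 for Rpl27, -0.20 to 0.43 for Rpl39l, -0.44 to 0.21 for Rpl41, -0.17 to 0.31 for Rpl8, -0.47 to 0.14 for Rplp0, -0.39 to 0.14 for Rplp2, -0.27 to 0.39 for Rps12, -0.59 to 0.17 for Rps15a, -0.24 to 0.63 for Rps27l and -0.41 to 0.15 for Rpsa. In TC + ATA against EV they ran from -0.38 to 0.31 for Rpl27, -0.43 to 0.21 for Rpl41, -0.26 to 0.21 for Rpl8, -0.49 to 0.10 for Rplp0, -0.34 to 0.18 for Rplp2, -0.33 to 0.31 for Rps12, -0.61 to 0.14 for Rps15a, -0.23 to 0.63 for Rps27l and -0.43 to 0.11 for Rpsa. The median difference between the EV libraries was -0.38 by library size alone and -0.49 after TMM.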
